A study of Homo sapiens with 9 samples.

Results

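The 45 genes described here encode the machinery of autophagy together with proteins of the lysosome. They were chosen by gene symbol, with earlier results of these data known, from the 58735 genes measured in HCT116 cells with altered A20. They comprise 26 genes that act in autophagosome formation and cargo capture, the 3 transcription factors TFEB, TFE3 and MITF, 4 lysosomal membrane proteins, 7 cathepsins and 5 other lysosomal hydrolases and activators. Of the 45, 44 had a mean of at least 0.1 FPKM (fragments counted for a gene, scaled for its length and for the depth of the library) over the libraries and were tested. MAP1LC3A did not reach that level.

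HCT116 is an established human colorectal carcinoma cell line, and A20 (gene symbol TNFAIP3) is a ubiquitin-editing protein that restrains inflammatory signalling. Poly-A RNA was sequenced from 3 groups of 3 libraries each, to learn which genes follow A20 in these cells. The A20-WT libraries came from wild-type cells. The A20-KO libraries came from cells in which A20 was targeted with lentiviral CRISPR guides followed by puromycin selection. The A20-OE libraries carry an overexpression label, and the study's methods describe these cells as a rescue of the A20 knockout, so both groups share the CRISPR step. How A20 was restored in them is not given in the sources used here. Whether the cells were 1 clone, and whether the 3 libraries of a group came from separate cultures, is not given in the sources used here, so p-values measure the spread between these libraries only, which may be technical.

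Autophagy encloses cytoplasm in a double membrane that fuses with the lysosome. The ULK kinases and a lipid kinase complex start the membrane, ATG2, ATG9 and WIPI proteins enlarge it, and a ubiquitin-like conjugation system attaches LC3 and GABARAP proteins to it, which cargo receptors then bind. In the lysosome, cathepsins and other hydrolases degrade the contents, and TFEB, TFE3 and MITF are related transcription factors that activate many autophagy and lysosomal genes through the CLEAR element, an extended E-box.

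Promoter windows of 250 bases before to 50 bases after the start were found in RefSeq (GRCh38.p14) for 40 of the 45 genes, in 57 windows. MAP1LC3A, CTSB, LAMP2, PSAP and HEXA had none. Nested motifs were searched on both strands, so that every longer match is also a shorter one. The core of the E-box is CACGTG. One longer form adds a base to give TCACGTG, which reads as CACGTGA on the opposite strand. The full palindrome is TCACGTGA. CACGTG occurred in 9 of the 57 windows (15.8%), each of a different gene, against 7.26% of 35116 windows of all genes. TCACGTG occurred in 8 (ATG14, ATG3, CTSA, CTSD, GAA, LAMP1, MCOLN1 and NEU1; 14.0%), against 3.71%. TCACGTGA occurred in 5 (ATG3, CTSA, GAA, LAMP1 and MCOLN1; 8.77%), against 0.98%. The stretches before the start are given for the 5 genes that held TCACGTG and passed the expression test in at least 1 comparison, with the motif in capitals, 5′ to 3′ on the strand of the gene. LAMP1 (chr13:113297026-113297237, plus strand) held 5 motifs before its start, MCOLN1 (chr19:7522562-7522623, plus) and GAA (chr17:80101484-80101576, plus) held 2 each, and NEU1 (chr6:31862922-31862968, minus) and ATG3 (chr3:112561963-112562001, minus) held 1 each.
LAMP1: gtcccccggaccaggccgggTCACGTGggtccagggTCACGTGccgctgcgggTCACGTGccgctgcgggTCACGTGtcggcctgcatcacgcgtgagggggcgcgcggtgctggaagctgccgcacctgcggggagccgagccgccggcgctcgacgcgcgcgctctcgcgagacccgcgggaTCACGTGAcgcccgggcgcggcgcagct
MCOLN1: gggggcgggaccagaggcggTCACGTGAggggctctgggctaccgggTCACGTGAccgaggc
GAA: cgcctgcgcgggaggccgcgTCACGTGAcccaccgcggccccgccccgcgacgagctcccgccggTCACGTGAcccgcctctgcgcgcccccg
NEU1: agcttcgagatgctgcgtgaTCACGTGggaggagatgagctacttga
ATG3: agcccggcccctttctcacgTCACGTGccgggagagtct
A match describes the letters of the window and was not tested as a binding site.

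The libraries held 23406222 to 24963691 reads assigned to genes. TNFAIP3 mRNA was 0.869, 0.8002 and 0.736 FPKM in A20-WT, 1.93, 2.16 and 1.04 FPKM in libraries labelled A20-KO, and 58.7, 66.5 and 56.5 FPKM in A20-OE. In the libraries labelled A20-KO the targeted mRNA was higher than in A20-WT, by 0.95 on the log2 scale (SE 0.23, limma adjusted p = 0.0182). The level of TNFAIP3 mRNA thus does not check that label, and every direction below refers to the groups as labelled. All 6 epithelial markers were present, whereas of 5 intestinal markers CDX2 alone reached a mean of 1 FPKM (VIL1, CDX1, CDH17 and LGALS4 were below 0.1). Of 20 markers of leukocytes, macrophages, fibroblasts and endothelium, 15 had a mean under 0.1 FPKM, and the highest was COL1A1 with a mean of 10.1 FPKM, while COL1A2, COL3A1, PDGFRB and DCN were below 0.1. COL1A1 moved with the groups (means of 5.32, 13.3 and 11.7 FPKM in A20-WT, A20-KO and A20-OE). So did the epithelial markers KRT19 (434, 878 and 903 FPKM) and CLDN4 (36.2, 85.4 and 104 FPKM). Both passed with a fold above 2 in each comparison with A20-WT. CDH1 passed only in A20-OE against A20-WT, and EPCAM, KRT8 and KRT18 in no comparison. The share of reads from mitochondrial genes moved as well (7.52 to 10.11% in A20-WT, 9.18 to 11.86% in A20-KO, 11.97 to 13.95% in A20-OE). The part of these differences in the results was not tested.

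More of the 44 genes rose than fell in the libraries labelled A20-KO against A20-WT. In that comparison 18 genes (40.9%) passed limma's test at an adjusted p under 0.05, 14 higher and 4 lower, while 22.3% of the 21636 genes tested passed it. The split by direction was 31.8% higher and 9.09% lower for the 44 genes, against 11.3% and 11.0% for all genes. Nearly all of these genes are well expressed, and among the 12796 genes with a mean of at least 1 FPKM the share past the test was 31.4%, against 17 of 43 (39.5%) for the members at that level. The median log2 fold change was 0.18 for the members and -0.01 for all genes. With a GC content correction, chosen after seeing the data, 12 were higher and 6 lower (40.9%, against 26.1% of all genes). That is 66.7% higher in place of 77.8%, while over all genes the share went from 50.6% to 48.0%. These were not the same 18 genes, since ULK1, ATG4B, GAA, CD63 and ATG12 were lost and others gained. With the correction and a block for replicate number, 18 were higher and 6 lower (54.5%, against 28.9% of all genes). With the adjusted p and a fold of 2 together, TFE3, MITF, OPTN and CTSH passed (9.09%, against 6.99% of all genes).

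Few members separated the A20-OE libraries from those labelled A20-KO. Only 6 of 44 (13.6%) passed, with ATG12, NBR1 and OPTN higher and LAMP1, MCOLN1 and GLA lower in A20-OE, against a background of 8.97% over all genes and 12.9% over genes with a mean of at least 1 FPKM. Higher and lower calls each made up 6.82% of the members, against 4.43% and 4.54% of all genes, and the median log2 fold change was -0.07 against 0.01. ATG12 alone passed the fold of 2 (2.27%, against 2.39%). This count moved when single libraries were left out, and so did the share of all genes. Without A20-KO 1, A20-OE 1 or A20-OE 2, 1 gene passed (2.27%, against 2.83%, 2.1% and 2.44% of all genes). Without A20-KO 3, 2 passed (4.55%, against 4.27%), and without A20-OE 3, 3 passed (6.82%, against 4.33%). Without A20-WT 1, 10 passed (22.7%), and the share of all genes rose as well. The GC content correction, chosen after seeing the data, gave 12 (27.3%, against 15.7% of all genes). Scaling to total reads, chosen after seeing the data, gave 2 higher and 6 lower (25.0% higher in place of 50%), and moved the share of higher calls over all genes from 49.4% to 34.1%.

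The widest separation was between A20-OE and A20-WT, where 23 genes (52.3%) passed, 15 higher (34.1%) and 8 lower (18.2%). The background was 31.1% of all genes, 15.7% higher and 15.4% lower, and 42.2% of genes with a mean of at least 1 FPKM. The median log2 fold change was 0.21 for the members and 0.03 for all genes. ATG2A, GABARAPL1, OPTN and MITF also passed the fold of 2 (9.09%, against 11.9%). Over the 3 comparisons, 27 of the 44 genes passed in at least 1 and 17 passed in none. The share of all genes that passed in at least 1 was not computed, so these 2 counts have no background beside them. Each pair of comparisons shares a group of libraries and is not independent. With 3 libraries against 3, an exact two-sided permutation test of a single gene cannot give a p below 0.1, so calls rest on the limma fit across all genes.

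**Figure D1:**
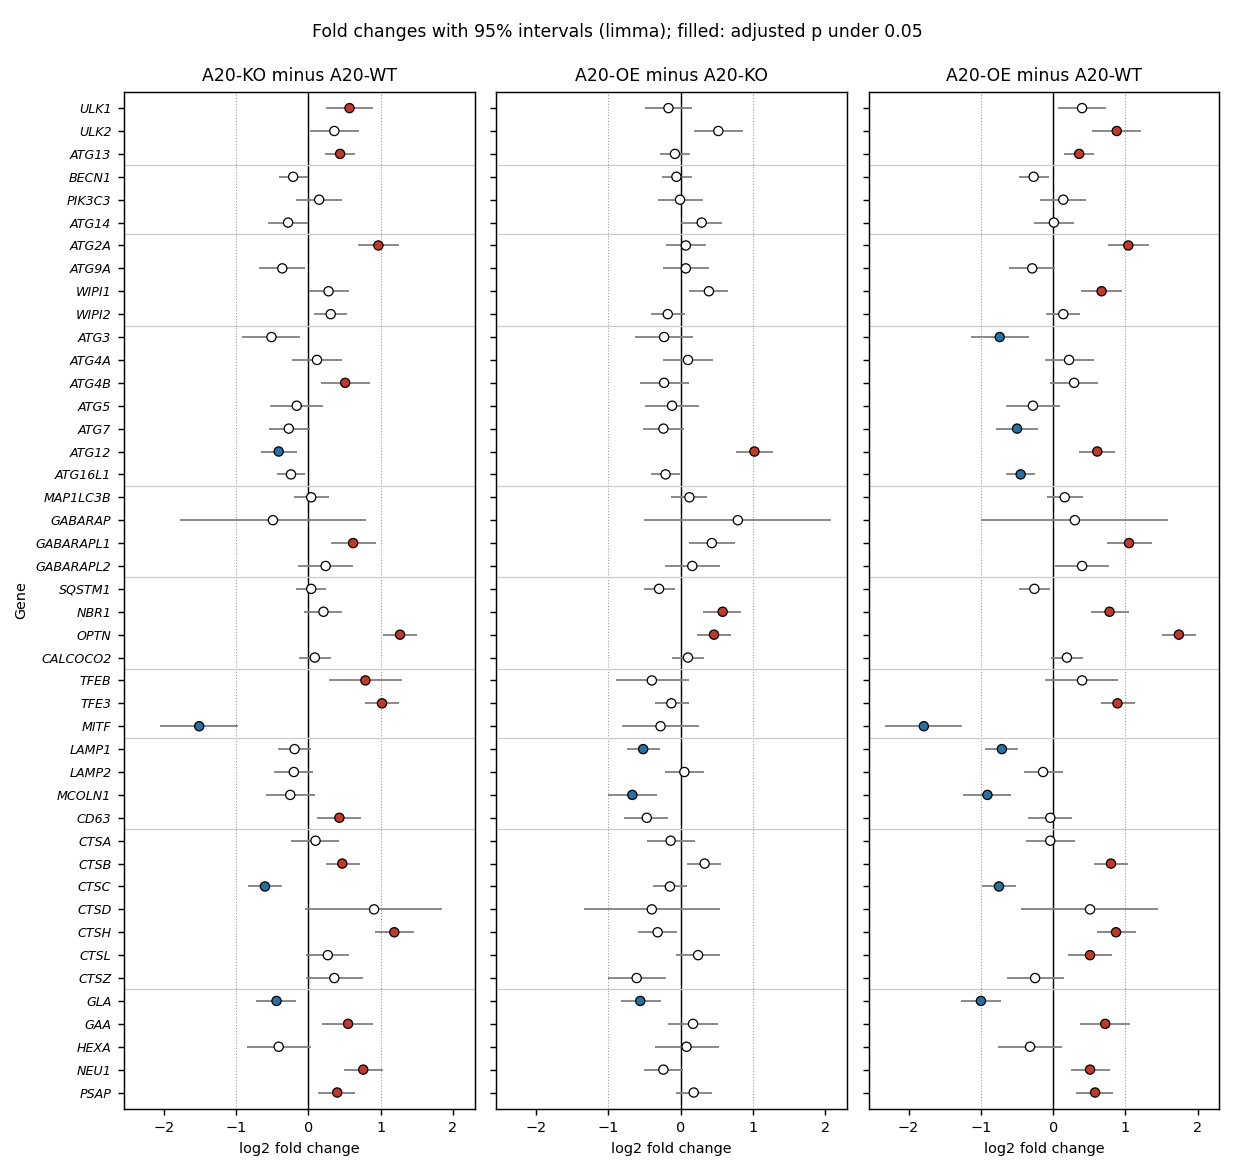
Log2 fold changes (x axis, on the log2(FPKM + 0.1) scale) of the 44 tested genes (y axis, ordered by role) in the 3 comparisons, with 95% intervals from limma as bars. Filled points passed an adjusted p under 0.05 (red higher, blue lower), 18, 6 and 23 of 44 from left to right, and OPTN and MITF lie farthest from 0 in the right panel.

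**Figure D2:**
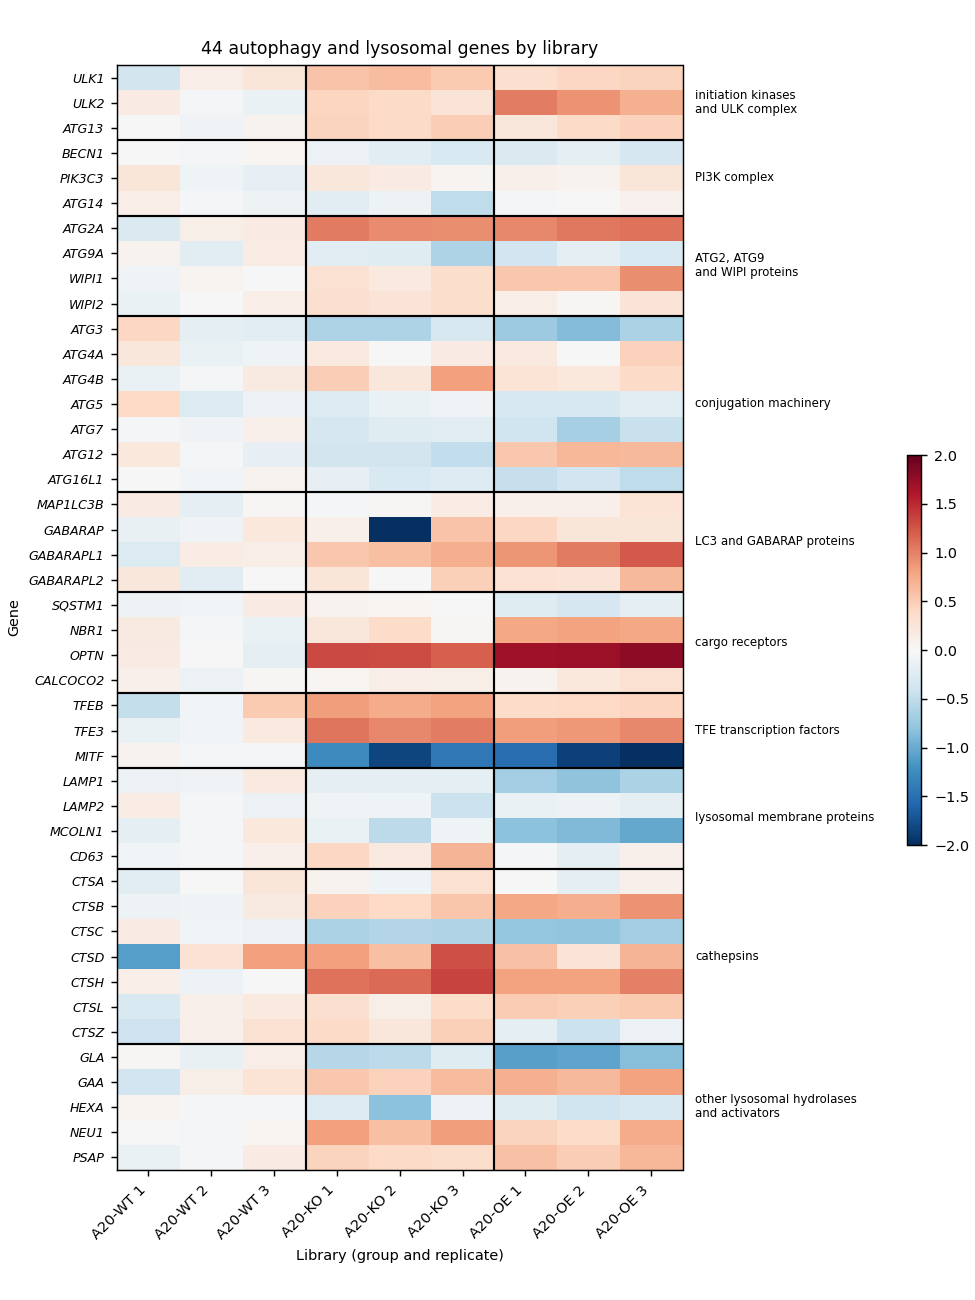
Log2(FPKM + 0.1) of each gene (rows, grouped by role) in each of the 9 libraries (columns) minus the mean of the 3 A20-WT libraries, with colour from -2 (blue) to 2 (red). OPTN is red and MITF blue in all 6 libraries labelled A20-KO or A20-OE, and a single dark cell marks GABARAP in A20-KO 2.

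The TFE family of transcription factors was split. TFE3 (chrX:49028726-49043486, minus strand) measured 4.82, 5.10 and 6.07 FPKM in A20-WT, 11.2, 10.4 and 10.9 FPKM in libraries labelled A20-KO, and 9.59, 9.79 and 10.4 FPKM in A20-OE. Both manipulated groups lay wholly above A20-WT and overlapped each other. TFE3 was higher by 1.02 ± 0.10 (log2, SE; adjusted p = 0.000418) in A20-KO and by 0.89 ± 0.10 (adjusted p = 0.000323) in A20-OE, both against A20-WT. Over all alternatives these values ranged from 0.69 to 1.11 and from 0.72 to 0.99. TFEB (chr6:41683978-41736259, minus strand), the best studied regulator of lysosome formation, was low, at 0.777, 1.08 and 1.64 FPKM in A20-WT, 2.06, 1.95 and 2.02 FPKM in A20-KO and 1.462, 1.498 and 1.541 FPKM in A20-OE. Its A20-WT values spread more than the other groups and did not reach the A20-KO values. TFEB rose by 0.79 ± 0.22 in the libraries labelled A20-KO (adjusted p = 0.0327), a call that was lost when any 1 library other than A20-WT 3 was left out, and the A20-OE difference from A20-WT was 0.40 ± 0.22 (adjusted p = 0.219).

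MITF (chr3:69739435-69968337, plus strand), best known as the master regulator of melanocytes, went the other way. It measured 1.10, 1.01 and 1.02 FPKM in A20-WT, 0.372, 0.221 and 0.323 FPKM in A20-KO and 0.298, 0.213 and 0.188 FPKM in A20-OE, from 182 to 196 reads per A20-WT library and 31 to 65 in the others. Its A20-WT libraries stood above all 6 others. MITF fell by 1.51 on the log2 scale (SE 0.24, adjusted p = 0.0026) in libraries labelled A20-KO and by 1.79 (SE 0.24, adjusted p = 0.000585) in A20-OE, with no call between those groups (-0.28, 95% interval -0.81 to 0.25). Between A20-OE and A20-KO, limma gave 0 of the 3 TFE genes (against 8.97% of all genes), 0 also at an unadjusted p under 0.05 and with limma-voom. As the least abundant tested member, MITF has the values that the pseudocount moves most.

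At the start of autophagosome formation, 2 of 3 genes passed in each comparison with A20-WT, all higher. They were ULK1 and ATG13 in the libraries labelled A20-KO, and ULK2 and ATG13 in A20-OE. Of all genes, 11.3% and 15.7% were higher in these comparisons. ULK1, the kinase that starts the process, measured 7.03, 9.95 and 10.7 FPKM in A20-WT, 13.6, 14.0 and 13.1 FPKM in A20-KO and 11.5, 12.1 and 12.4 FPKM in A20-OE. It rose by 0.57 ± 0.15 in the libraries labelled A20-KO (adjusted p = 0.0223), and the call was lost without any 1 of the A20-KO libraries and with the GC content correction. The A20-OE difference from A20-WT was 0.40 ± 0.15 (adjusted p = 0.0669). ULK2, its close relative, measured 1.11, 0.943 and 0.878 FPKM in A20-WT, 1.34, 1.30 and 1.18 FPKM in A20-KO and 2.08, 1.89 and 1.66 FPKM in A20-OE. The 3 groups did not overlap, and the difference of 0.88 ± 0.15 between A20-OE and A20-WT passed (adjusted p = 0.00222) while that between A20-OE and A20-KO (0.52 ± 0.15, adjusted p = 0.0635) and that between A20-KO and A20-WT (0.36 ± 0.15, adjusted p = 0.122) did not. ATG13, a regulatory subunit of the ULK complex, measured 8.68, 8.22 and 9.10 FPKM in A20-WT, 11.8, 11.3 and 12.2 FPKM in A20-KO and 10.2, 11.4 and 11.96 FPKM in A20-OE. It rose by 0.44 ± 0.09 and 0.36 ± 0.09 against A20-WT (adjusted p = 0.00998 and 0.0167), the second call being lost without A20-WT 2, A20-OE 2 or A20-OE 3.

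None of the 3 measured subunits of the lipid kinase complex passed in any comparison. Of all genes, 22.3% passed in A20-KO against A20-WT, 8.97% in A20-OE against A20-KO and 31.1% in A20-OE against A20-WT. PIK3C3, the catalytic subunit of the complex, had means of 2.09 ± 0.33, 2.31 ± 0.14 and 2.30 ± 0.16 FPKM (SD, n = 3) in A20-WT, A20-KO and A20-OE. BECN1, the scaffold, had means of 8.23, 7.11 and 6.83 FPKM, and its A20-OE difference from A20-WT of -0.27 ± 0.09 came closest (adjusted p = 0.0518). ATG14, which directs the complex to the forming membrane, had means of 5.85, 4.83 and 5.89 FPKM, with differences between -0.28 and 0.29. At an unadjusted p under 0.05, limma gave 2, 1 and 1 of the 3 genes in A20-KO against A20-WT, A20-OE against A20-KO and A20-OE against A20-WT, and limma-voom on recovered reads called 0, 0 and 1 at the adjusted threshold.

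Among the proteins that enlarge the membrane, the lipid transfer protein ATG2A (chr11:64894546-64917248, minus strand) about doubled. It measured 4.75, 6.33 and 6.55 FPKM in A20-WT, 12.04, 11.3 and 11.1 FPKM in A20-KO, and 11.5, 12.2 and 12.5 FPKM in A20-OE. The A20-WT libraries were all lower than the other 6, which overlapped. The log2 fold changes against A20-WT were 0.97 ± 0.13 (adjusted p = 0.00114) and 1.04 ± 0.13 (adjusted p = 0.000368), and both calls held without any 1 library. WIPI1, which reads the lipid made by the kinase complex, measured 5.01, 5.46 and 5.26 FPKM in A20-WT, 6.48, 6.04 and 6.68 FPKM in A20-KO and 7.67, 7.65 and 10.1 FPKM in A20-OE, and rose by 0.67 ± 0.12 in A20-OE against A20-WT (adjusted p = 0.00314). Of its exonic bases, 24.3% overlap the oppositely oriented gene ARSG, and reads there cannot be assigned without strand. WIPI2 (group means 10.6 to 13.2 FPKM) and the scramblase ATG9A (9.01 to 11.6 FPKM) passed in no comparison, with 38.8% of the exonic bases of ATG9A shared with a second gene model on its strand.

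The conjugation machinery held the member that differed most between A20-OE and the libraries labelled A20-KO. ATG12 (chr5:115828200-115841858, minus strand), the ubiquitin-like protein joined to ATG5, measured 11.3, 9.55 and 8.703 FPKM in A20-WT, 7.62, 7.57 and 6.95 FPKM in A20-KO and 14.2, 15.5 and 15.5 FPKM in A20-OE. The A20-KO libraries were the lowest and the A20-OE libraries the highest, with no overlap. ATG12 was lower in A20-KO than in A20-WT (difference -0.41 ± 0.11, adjusted p = 0.0287), higher by 1.02 ± 0.11 in A20-OE against A20-KO (adjusted p = 0.00195) and higher by 0.61 ± 0.11 in A20-OE against A20-WT (adjusted p = 0.0029). The A20-OE calls held without any 1 library, whereas the first was lost without A20-WT 2, without any 1 A20-KO library and with the GC content correction. The first was also lost without the variance trend and in a fit on only the 2 groups compared.

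ATG3, the enzyme that hands LC3 to its lipid, measured 9.39, 6.20 and 6.03 FPKM in A20-WT, 4.57, 4.58 and 5.65 FPKM in A20-KO and 4.23, 3.81 and 4.52 FPKM in A20-OE. A20-WT 1 stood apart from the other A20-WT libraries, and the fall of ATG3 in A20-OE against A20-WT (-0.74 ± 0.18, adjusted p = 0.0119) was lost without A20-OE 2. ATG7, the activating enzyme of the system, measured 2.20, 2.14 and 2.41 FPKM in A20-WT, 1.75, 1.88 and 1.92 FPKM in A20-KO and 1.69, 1.38 and 1.62 FPKM in A20-OE. Its 3 groups did not overlap, and its fall in A20-OE against A20-WT (-0.50 ± 0.13, adjusted p = 0.0155) was also lost without A20-OE 2. Of the exonic bases of ATG7, 18.1% overlap the oppositely oriented gene VGLL4. ATG16L1, which places the conjugate on the membrane, fell by 0.45 on the log2 scale in that comparison (SE 0.09, adjusted p = 0.00472), from a mean of 8.49 to 6.19 FPKM. In contrast, the protease ATG4B, which trims LC3, measured 14.6, 15.5 and 17.98 FPKM in A20-WT, 22.4, 18.8 and 28.3 FPKM in A20-KO and 19.3, 18.4 and 20.8 FPKM in A20-OE. It rose by 0.51 ± 0.15 in the libraries labelled A20-KO (adjusted p = 0.0373), a call lost without A20-WT 1, A20-WT 2, A20-KO 1, A20-KO 3 or any 1 A20-OE library and with the GC content correction. That call was also lost with no filter on low values, without the variance trend and in a fit on only the 2 groups compared. ATG4A (3.15 to 3.71 FPKM) and ATG5 (6.69 to 8.33 FPKM) passed in no comparison.

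Of the LC3 and GABARAP proteins, which coat the membrane, GABARAPL1 alone passed. In both comparisons with A20-WT it was 25.0% of the 4 tested, against 22.3% and 31.1% of all genes. It measured 5.78, 7.81 and 7.71 FPKM in A20-WT, 10.3, 10.8 and 11.7 FPKM in A20-KO and 13.1, 14.6 and 16.7 FPKM in A20-OE, with no overlap between groups. The rise against A20-WT was 0.62 ± 0.14 in libraries labelled A20-KO (adjusted p = 0.0132) and 1.05 ± 0.14 in A20-OE (adjusted p = 0.000621), and neither call depended on 1 library. MAP1LC3B, the LC3 gene used as the usual autophagosome marker, measured 23.6, 18.6 and 21.3 FPKM in A20-WT, 20.47, 21.4 and 23.4 FPKM in A20-KO and 22.6, 22.6 and 25.6 FPKM in A20-OE. Its groups overlapped, and the 95% interval of its log2 fold change was -0.20 to 0.29 for A20-KO and -0.09 to 0.41 for A20-OE against A20-WT. GABARAPL2 had means of 16.4 ± 2.6, 19.4 ± 3.3 and 21.6 ± 3.3 FPKM and passed in no comparison. MAP1LC3A had 0 to 6 reads per library, with 0 in A20-WT 2, a count that allows up to 3 reads, so no fold change is given.

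GABARAP was singled out after its values were seen. It had 12 reads (0.215 FPKM) in A20-KO 2 and 65 to 103 reads (1.16 to 1.95 FPKM) in the other 8 libraries, and its log2 difference between A20-KO and A20-WT of -0.49 had a 95% interval of -1.78 to 0.80. Other gene models cover 55.7% of its exonic bases, and how reads in shared exons were assigned is not given in the sources used here.

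Among the cargo receptors, which tie ubiquitinated cargo to LC3, OPTN (chr10:13099449-13138308, plus strand) showed the largest rise of all members. It measured 3.99, 3.54 and 3.12 FPKM in A20-WT, 8.92, 8.88 and 8.26 FPKM in A20-KO and 11.7, 11.9 and 12.5 FPKM in A20-OE. The groups did not overlap. OPTN rose by 1.27 ± 0.11 (adjusted p = 0.000181) in libraries labelled A20-KO and by 1.74 ± 0.11 (adjusted p = 1.37e-05) in A20-OE against A20-WT, in all alternatives. The further difference between A20-OE and A20-KO was 0.46 ± 0.11 (adjusted p = 0.0318). That call was lost without A20-WT 2 or any 1 A20-KO or A20-OE library. It was also lost without the variance trend and with scaling to total reads.

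NBR1 (chr17:43170481-43211689, plus strand) was higher in A20-OE than in both other groups. It measured 9.60, 8.26 and 7.71 FPKM in A20-WT, 9.94, 11.0 and 8.60 FPKM in A20-KO and 14.6, 14.8 and 14.5 FPKM in A20-OE. A20-WT and A20-KO overlapped, and the A20-OE libraries lay above both. NBR1 rose by 0.78 ± 0.12 against A20-WT (adjusted p = 0.00117) and by 0.58 ± 0.12 against A20-KO (adjusted p = 0.0214), the latter lost without A20-KO 1, A20-KO 3 or any 1 A20-OE library. SQSTM1 (p62), which is degraded along with its cargo, measured 25.3, 26.2 and 30.4 FPKM in A20-WT, 28.5, 27.9 and 27.4 FPKM in A20-KO and 23.0, 21.4 and 23.9 FPKM in A20-OE. Its A20-OE libraries were the lowest, with differences of -0.30 ± 0.09 against A20-KO (adjusted p = 0.0847) and -0.26 ± 0.09 against A20-WT (adjusted p = 0.0653), and neither passed. CALCOCO2 (NDP52) had means of 10.3 ± 0.8, 11.0 ± 0.4 and 11.8 ± 0.9 FPKM and passed in no comparison.

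**Figure D3:**
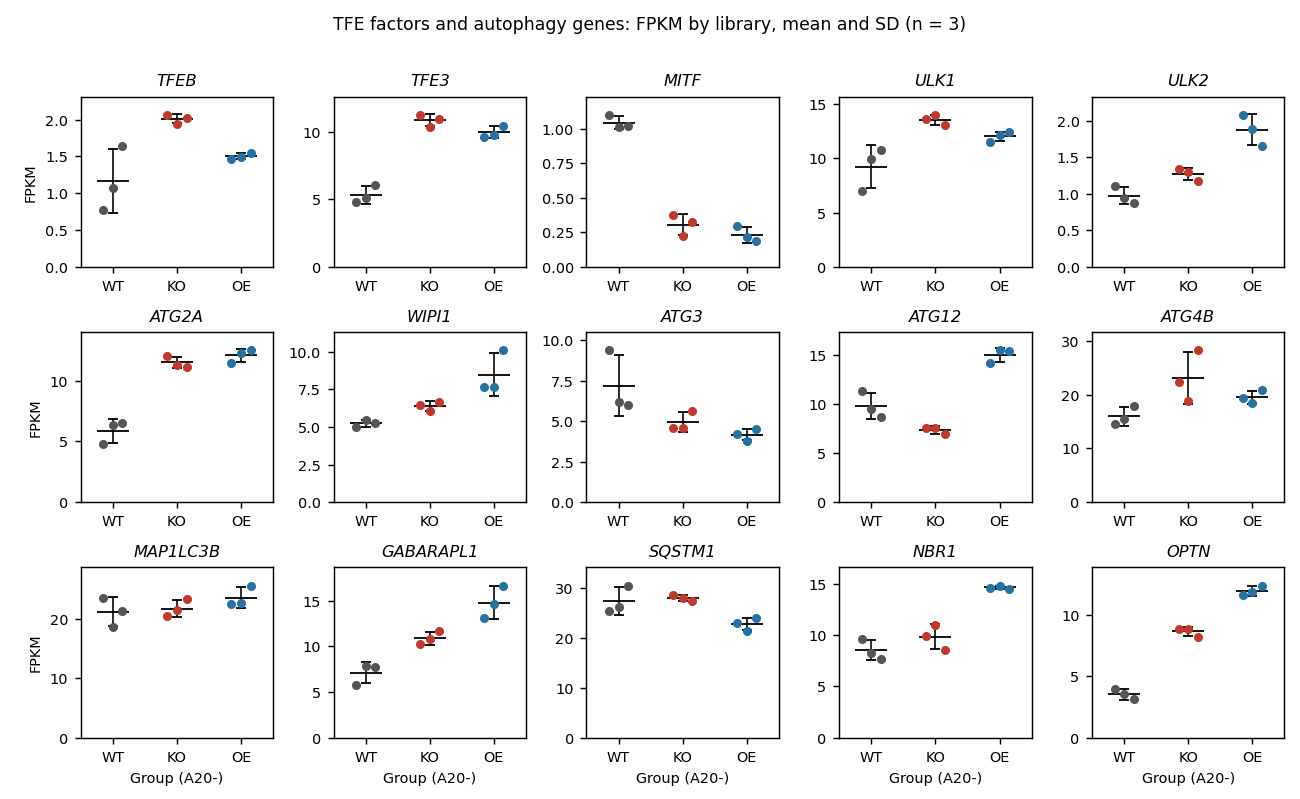
FPKM (y axis, from 0) of the 3 TFE factors and 12 autophagy genes in each library (points) of A20-WT, A20-KO and A20-OE (x axis), with the mean as a bar and the SD as whiskers (n = 3). OPTN climbs from a mean of 3.55 to 12 FPKM, MITF falls from 1.04 to 0.233 FPKM, and MAP1LC3B stays between means of 21.2 and 23.6 FPKM.

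Of the 4 lysosomal membrane proteins, LAMP1 and MCOLN1 were lower in A20-OE than in both other groups. LAMP1, one of the most abundant proteins of the lysosomal membrane, measured 54.7, 56.4 and 68.0 FPKM in A20-WT, 52.3, 52.2 and 51.9 FPKM in A20-KO and 36.7, 33.8 and 38.3 FPKM in A20-OE. The 3 groups did not overlap. LAMP1 fell by 0.71 on the log2 scale in A20-OE against A20-WT (SE 0.10, adjusted p = 0.000915) and by 0.52 against A20-KO (SE 0.10, adjusted p = 0.018), the latter call being lost without A20-KO 1, A20-OE 1 or A20-OE 2. MCOLN1, the calcium channel of the lysosome, measured 6.17, 6.86 and 8.12 FPKM in A20-WT, 6.38, 4.85 and 6.62 FPKM in A20-KO and 3.93, 3.74 and 3.38 FPKM in A20-OE. Its A20-OE values lay below all others, with falls of 0.91 against A20-WT (SE 0.15, adjusted p = 0.00183) and 0.67 against A20-KO (SE 0.15, adjusted p = 0.0296), the latter lost without A20-WT 2, A20-KO 1, A20-KO 3 or any 1 A20-OE library. The call against A20-KO was also lost without the variance trend.

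LAMP2, the partner of LAMP1, measured 16.2, 14.2 and 13.5 FPKM in A20-WT, 13.9, 13.8 and 10.8 FPKM in A20-KO and 13.3, 13.7 and 12.7 FPKM in A20-OE. Its groups overlapped, and the interval of its A20-OE difference from A20-WT ran from -0.41 to 0.13. CD63, a tetraspanin of late endosomes and lysosomes, measured 52.3, 52.7 and 58.2 FPKM in A20-WT, 72.4, 62.1 and 87.1 FPKM in A20-KO and 52.8, 47.4 and 58.4 FPKM in A20-OE. It rose by 0.43 ± 0.13 in the libraries labelled A20-KO and sat at the threshold (adjusted p = 0.04996). That call was lost without A20-KO 1, A20-KO 3, any 1 A20-WT library or any 1 A20-OE library, with a pseudocount of 1 and with the GC content correction.

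The cathepsins, proteases of the lysosome, did not move as one. CTSH (chr15:78921058-78949574, minus strand), an aminopeptidase, measured 2.96, 2.46 and 2.66 FPKM in A20-WT, 5.82, 6.02 and 7.02 FPKM in A20-KO and 4.78, 4.76 and 5.49 FPKM in A20-OE. The groups did not overlap. CTSH was 1.19 ± 0.12 higher in libraries labelled A20-KO (adjusted p = 0.00039) and 0.87 ± 0.12 higher in A20-OE (adjusted p = 0.000745) than in A20-WT, in all alternatives. CTSB, an abundant cysteine protease, measured 34.4, 34.8 and 42.1 FPKM in A20-WT, 51.1, 48.8 and 54.0 FPKM in A20-KO and 63.3, 61.3 and 68.7 FPKM in A20-OE, again without overlap, and rose by 0.47 ± 0.10 (adjusted p = 0.0117) and 0.80 ± 0.10 (adjusted p = 0.000527). CTSL, another cysteine protease, measured 15.3, 20.2 and 21.6 FPKM in A20-WT, 23.5, 20.4 and 24.3 FPKM in A20-KO and 26.9, 26.4 and 27.2 FPKM in A20-OE. It rose by 0.51 ± 0.13 in A20-OE against A20-WT (adjusted p = 0.0179), a call lost without A20-OE 1 or A20-OE 3.

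CTSC, which activates serine proteases of granules in immune cells, was the cathepsin that fell. It measured 6.12, 5.26 and 5.05 FPKM in A20-WT, 3.51, 3.62 and 3.56 FPKM in A20-KO and 3.15, 3.12 and 3.34 FPKM in A20-OE. The 6 manipulated libraries were all below A20-WT, by 0.60 on the log2 scale in those labelled A20-KO (difference -0.60 ± 0.10, adjusted p = 0.00422) and by more in A20-OE (difference -0.75 ± 0.10, adjusted p = 0.000778), in all alternatives. CTSA (means of 17.8, 19.0 and 17.2 FPKM) and CTSZ (46.6, 58.9 and 38.6 FPKM) passed in no comparison. CTSD, an abundant aspartic protease singled out after its values were seen, had 545 reads (7.02 FPKM) in A20-WT 1 and 1422 to 2731 reads (18.3 to 37.5 FPKM) in the other 8 libraries. Its log2 difference between A20-KO and A20-WT was 0.91 with a 95% interval of -0.04 to 1.85, and 52.7% of its exonic bases lie in other gene models as well.

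The other hydrolases and activators moved in both directions. GLA (chrX:101397803-101408012, minus strand), alpha-galactosidase A, measured 16.9, 15.04 and 18.3 FPKM in A20-WT, 11.3, 11.6 and 14.1 FPKM in A20-KO and 7.82, 7.97 and 9.18 FPKM in A20-OE. Each group lay below the one before without overlap. The difference of -1.0 ± 0.12 between A20-OE and A20-WT (adjusted p = 0.000396) held in all alternatives. The differences of -0.44 ± 0.12 for A20-KO against A20-WT (adjusted p = 0.0306) and -0.56 ± 0.12 for A20-OE against A20-KO (adjusted p = 0.0276) did not: the first was lost without A20-WT 1, A20-WT 3, A20-KO 1, A20-KO 2 or A20-OE 1, and the second without any 1 A20-KO library, A20-OE 1 or A20-OE 2. Both were also lost without the variance trend, and the first in a fit on only the 2 groups compared. HEXA, a subunit of beta-hexosaminidase, had means of 1.21, 0.910 and 0.949 FPKM and passed in no comparison.

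GAA, the acid alpha-glucosidase that degrades glycogen, measured 27.8, 39.3 and 44 FPKM in A20-WT, 52.9, 50.3 and 56.1 FPKM in A20-KO and 59.3, 57.1 and 63.4 FPKM in A20-OE. It rose by 0.72 ± 0.16 in A20-OE (adjusted p = 0.00747) and by 0.55 ± 0.16 in the libraries labelled A20-KO (adjusted p = 0.0346) against A20-WT, the latter call being lost without A20-WT 2 or any 1 A20-KO or A20-OE library and with the GC content correction. The latter was also lost with no filter on low values, without the variance trend and in a fit on only the 2 groups compared. NEU1, the lysosomal sialidase, measured 5.56, 5.38 and 5.68 FPKM in A20-WT, 9.91, 8.46 and 10 FPKM in A20-KO and 7.56, 7.15 and 9.30 FPKM in A20-OE. All 6 manipulated libraries were above A20-WT, with rises of 0.76 ± 0.12 (adjusted p = 0.00277) and 0.51 ± 0.12 (adjusted p = 0.0106). PSAP, the precursor of the saposins that present lipids to hydrolases, was the most abundant member, at 189.5, 203.2 and 233.3 FPKM in A20-WT, 282.9, 272.4 and 266.6 FPKM in A20-KO and 310.4, 292.8 and 328.0 FPKM in A20-OE. It rose by 0.58 ± 0.11 in A20-OE (adjusted p = 0.00435) and by 0.40 ± 0.11 in the libraries labelled A20-KO (adjusted p = 0.0328), the latter lost without A20-WT 1, A20-WT 2, A20-OE 1 or any 1 A20-KO library. The latter was also lost with no filter on low values and in a fit on only the 2 groups compared.

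**Figure D4:**
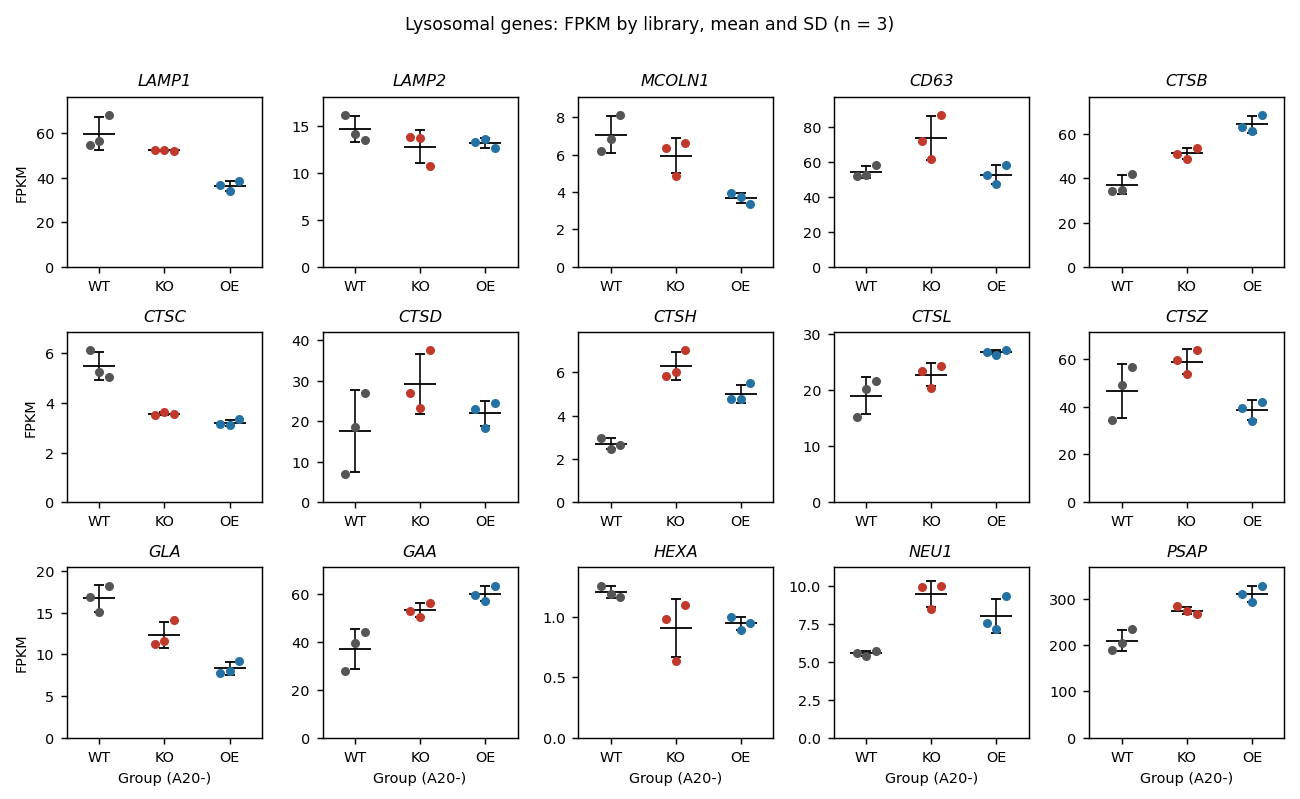
FPKM (y axis, from 0) of 15 lysosomal genes in each library (points) of A20-WT, A20-KO and A20-OE (x axis), with the mean as a bar and the SD as whiskers (n = 3). LAMP1 and GLA step down to means of 36.3 and 8.33 FPKM in A20-OE, CTSB, GAA and PSAP step up to 64.4, 59.9 and 310.4 FPKM, and A20-WT 1 is a lone low point for CTSD.

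Among the members whose promoter window held TCACGTG, expression differed in both directions. GAA and NEU1 were higher in both manipulated groups than in A20-WT. LAMP1 and MCOLN1, with 5 and 2 motifs before the start, were lower in A20-OE than in either other group, and ATG3 was lower in A20-OE than in A20-WT. ATG14, CTSA and CTSD passed in no comparison.

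Beyond the members, 156 further genes of the autophagy and lysosome pathways were tested. Of these, 40 passed in the libraries labelled A20-KO against A20-WT (30 higher and 10 lower, 25.6%), 17 in A20-OE against A20-KO (8 higher and 9 lower, 10.9%) and 60 in A20-OE against A20-WT (38 higher and 22 lower, 38.5%), against 22.3%, 8.97% and 31.1% of all genes. By direction, 19.2% were higher and 6.41% lower in the first comparison (11.3% and 11.0% of all genes), 5.13% and 5.77% in the second (4.43% and 4.54%) and 24.4% and 14.1% in the third (15.7% and 15.4%). Of 21 other autophagy core genes, 8, 3 and 11 passed in these comparisons (38.1%, 14.3% and 52.4%). Among them, ATG16L2, a relative of ATG16L1, rose by 1.19 ± 0.16 in A20-KO against A20-WT. ATG9B, a relative of ATG9A, rose by 0.85 ± 0.22 in A20-OE against A20-KO and by 1.60 ± 0.22 against A20-WT. Of 11 other autophagy receptors, 3 passed in each comparison (27.3%), all higher, against 11.3%, 4.43% and 15.7% of all genes higher. The mitophagy receptor BNIP3 rose by 1.06 ± 0.09 in A20-OE against A20-KO (means of 29.8 and 14.2 FPKM), its relative BNIP3L rose by 1.47 ± 0.09 in A20-OE against A20-WT (40.9 and 14.7 FPKM), and TOLLIP rose by 0.48 ± 0.12 in A20-KO against A20-WT. Of 13 genes for fusion of autophagosome and lysosome, 2, 0 and 2 passed (15.4%, 0.0% and 15.4%). They were led by VPS16 (0.42 ± 0.13 in A20-KO) and VPS33A (-0.69 ± 0.17 in A20-OE, against A20-WT), both subunits of tethering complexes. For the 0 from limma, 2 of the 13 genes had an unadjusted p under 0.05, and limma-voom called 1.

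On the lysosomal side, the background for each list below was 22.3%, 8.97% and 31.1% of all genes. The 11 other cathepsins and peptidases had 3, 1 and 6 genes past the test (27.3%, 9.09% and 54.5%). CTSK, a collagen-degrading cathepsin, rose by 1.16 ± 0.18 in A20-KO and by 1.21 ± 0.18 in A20-OE against A20-WT, while CTSV differed by -0.59 ± 0.10 in A20-OE against A20-KO. Of 28 other hydrolases and activators, 10, 4 and 14 passed (35.7%, 14.3% and 50%). IDUA, which degrades glycosaminoglycans, rose by 1.86 ± 0.16 in A20-KO against A20-WT, and HYAL1, a hyaluronidase, rose by 1.67 ± 0.12 in A20-OE against A20-WT. Among 17 other lysosomal membrane proteins, 4, 1 and 7 passed (23.5%, 5.88% and 41.2%). They included the ion channel TPCN1 (1.19 ± 0.08 and 0.99 ± 0.08 in A20-KO and A20-OE against A20-WT) and the amino acid transporter SLC36A1 (-0.64 ± 0.15 in A20-OE against A20-KO).

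Of 20 subunits of the vacuolar ATPase, 3, 2 and 7 passed. The share was below that of all genes in the first comparison and slightly above it in the others (35% against 31.1% in the last). In the last comparison 6 were lower (30%, against 15.4% of all genes) and 1 higher. ATP6V0E2 differed by -1.01 ± 0.15 in A20-OE against A20-KO and by -1.0 ± 0.15 against A20-WT, and ATP6V1C2 by 0.78 ± 0.18 in A20-KO against A20-WT. Of 21 genes of mTORC1 and TFE control, 1, 2 and 5 passed (4.76%, 9.52% and 23.8%). MTOR, the kinase that holds TFE factors in the cytoplasm, was lower in libraries labelled A20-KO than in A20-WT (7.05 against 10.9 FPKM, difference -0.64 ± 0.15), LAMTOR2 differed by -0.69 ± 0.17 in A20-OE against A20-KO and RRAGD by 0.95 ± 0.12 in A20-OE against A20-WT. Of 9 genes that sort enzymes to the lysosome, 3, 1 and 3 passed (33.3%, 11.1% and 33.3%). GGA1 differed by 0.70 ± 0.12 in A20-KO against A20-WT, GGA3 by 0.33 ± 0.09 in A20-OE against A20-KO and NAGPA by -1.27 ± 0.18 in A20-OE against A20-WT. Of 5 cathepsin inhibitors, 3, 0 and 2 passed (60.0%, 0.0% and 40.0%), all higher, against 11.3%, 4.43% and 15.7% of all genes higher. For the 0 from limma, 1 gene had an unadjusted p under 0.05 and limma-voom called 1. CSTA (stefin A) rose by 1.90 ± 0.19 in A20-KO and by 1.31 ± 0.19 in A20-OE against A20-WT.

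GC content moved with the direction of change in the libraries labelled A20-KO, for the members as for all genes. The longest transcripts of the 14 members that were higher than in A20-WT had a median GC content of 54.7%, against 39.8% for the 4 that were lower and 49.0% for the 26 that did not pass. Over all genes tested the medians were 56.9%, 44.4% and 48.5%. In A20-OE against A20-WT the members' medians were closer, at 52.5% for the 15 higher and 48.8% for the 8 lower. With the GC content correction, ULK1, ATG4B, GAA, CD63 and ATG12 no longer passed in A20-KO against A20-WT, and TFE3, MITF, OPTN, ATG2A, ATG13, GABARAPL1, CTSB, CTSC, CTSH and NEU1 passed there in every alternative that tested them.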

How the data were processed

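The authors sequenced poly-A RNA as 150 bp paired reads, and the submitters' processing notes name HISAT2 2.0.5 and featureCounts 1.5.0-p3 in that field. The deposited values are FPKM per gene and library, computed by the authors from counts per gene. No genome build is given in the sources used here. All 58735 gene identifiers are in GENCODE release 29 (GRCh38), 58724 with the same start and end. Low values were whole multiples of 1 read (tolerance 0.05) in 100% of cases, so reads were recovered, 23406222 to 24963691 per library. Median-of-ratios size factors recomputed from the FPKM were equal in all 9 libraries, so the deposited values already carry such a scaling. Strand setting and the assignment of reads in shared exons are not given in the sources used here. Beside the genes named above for shared exons, other gene models cover 22.0% of the exonic bases of SQSTM1, 28.5% of CTSA, 17.1% of BECN1 and 16.3% of HEXA. No column of per-sample values was left unused.

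Groups were taken from the sample titles. Genes with a mean of at least 0.1 FPKM (21636) were tested with limma 3.58.1 (R 4.3.3) on log2(FPKM + 0.1), with 3 groups in 1 fit, a variance trend and Benjamini-Hochberg adjustment over all genes. A gene passed at an adjusted p under 0.05, and the study's threshold adds an absolute log2 fold change above 1. Fold changes on this scale understate changes of low genes. The procedure was tested on simulated data. Read floors (3 reads) cover counting error only. In bulk RNA, fewer cells and less RNA per cell cannot be told apart. Promoters are from RefSeq (GRCh38.p14). Figures and tables used Python 3.11.15 and SciPy 1.17.1. Alternatives were other pseudocounts (1 and 0.01), filters, scalings, limma-voom on recovered reads, a replicate block, each library left out in turn and a GC content correction in 50 bins. Others were a fit without the variance trend and a fit on only the 2 groups compared.

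Every member is accounted for. Values per library are given for TFEB, TFE3, MITF, MAP1LC3B, SQSTM1, LAMP1 and LAMP2 and, in each role, for up to 4 members past the test with the largest absolute log2 fold change. In each pathway list, the gene with the largest absolute change past the test in each comparison is named, except 1 that is not reported here. The members and lists were chosen with earlier results of these data known.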

Additional observations from a re-analysis of the deposited data

How the results depend on the processing

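Of the 47 member calls (18 in A20-KO against A20-WT, 6 in A20-OE against A20-KO and 23 in A20-OE against A20-WT), 10, 1 and 19 passed under every alternative that tested them, and none changed direction. Counts of members past the test that moved by more than 1.5 times were as follows, and where no value shows the cause it was not tested. For A20-KO against A20-WT, a fit on only the 2 groups compared gave 10 in place of 18 (22.7%, against 14.1% of all genes). That fit had fewer libraries to estimate the spread, but so it had in the other comparisons. There it gave 9 in place of 6 for A20-OE against A20-KO and 23, as before, for A20-OE against A20-WT. The cause of the drop was not tested. Leaving out 1 library gave 10 to 19 (22.7% to 43.2%, against 14.4% to 22.9% of all genes). With the fold of 2 added, a pseudocount of 1 gave 1 in place of 4, since it shrinks fold changes, and leaving out 1 library gave 3 to 7. For A20-OE against A20-KO, the count of 6 became 3 without the variance trend (6.82%, against 5.66% of all genes) and 11 with the replicate block. It became 12 with the GC content correction and 14 with both the correction and the replicate block. Leaving out 1 library gave 1 to 10, and the share of all genes moved in the same direction each time (2.1% without A20-OE 1). With the fold of 2 added, ATG12 no longer counted (0 in place of 1) with a pseudocount of 1, with limma-voom, with scaling to total reads and with the GC content correction alone or with the block, and leaving out 1 library gave 0 to 1. For A20-OE against A20-WT, a pseudocount of 1 left 1 of 4 past the fold of 2.

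The libraries were not treated as paired, because not every pair of same-numbered libraries deviated together: their deviations correlated at -0.123 to 0.325 over 9 pairs (mean 0.12), against a mean of -0.06 over 18 other pairs, and A20-WT 1 correlated best with A20-KO 2 (0.21). Those numbered 3 did deviate together, at 0.159 to 0.325 in their 3 pairs. The replicate block gave 19, 11 and 24 members past the test, the 11 being 25.0% of members against 11.9% of all genes, and 31.8% against 18.6% with the GC content correction as well. Signs were followed for the calls past the test and, in every comparison, for TFEB, TFE3, MITF, MAP1LC3B, SQSTM1, LAMP1 and LAMP2. Among these, only differences that had not passed changed sign. MAP1LC3B in A20-KO against A20-WT (0.04) was -0.05 without A20-WT 2, -0.01 without A20-KO 3 and -0.02 with the GC content correction, alone or with the block. SQSTM1 there (0.04) was -0.02 without A20-WT 1 and -0.15 with either correction. LAMP2 became 0.09 in A20-KO against A20-WT, -0.07 in A20-OE against A20-KO (also without A20-KO 3) and 0.02 in A20-OE against A20-WT with either correction, and TFE3 became 0.03 in A20-OE against A20-KO. Recomputed median-of-ratios scaling changed no call, the deposited values being on that scale already. Over all libraries left out in turn, MAP1LC3B and SQSTM1 in A20-KO against A20-WT ranged from -0.05 to 0.12 and -0.02 to 0.12, and LAMP2 from -0.07 to 0.11 in A20-OE against A20-KO. Depth limits MAP1LC3A (0 to 6 reads), MITF (31 reads at the lowest) and GABARAP (12 reads in A20-KO 2).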
